A study of Rattus norvegicus with 12 samples.

Results

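Collagens, laminins and integrins are the structural proteins of the extracellular matrix and the receptors by which cells hold on to it. Their genes were taken by symbol from the 21556 genes of the deposited expression table: every collagen chain (Col followed by a chain number), every laminin chain (Lama, Lamb, Lamc) and every integrin subunit (Itga, Itgb). This gave 80 genes, of which 43 were collagens, 11 laminins and 26 integrins. The RNA came from ND7/23, a clonal line made by fusing rat dorsal root ganglion neurons with the mouse neuroblastoma N18Tg2, and was labelled as rat. There were 4 groups of 3 libraries, all harvested at 6 h: control cells, cells given menthol (100 μM), cells given Wnt3a (100 ng/ml) and cells given menthol with Wnt3a at the same doses. Menthol is an agonist of the cold channel TRPM8, and Wnt3a is a ligand that activates Wnt/β-catenin signalling. The comparisons asked what each agent, and menthol in the presence of Wnt3a, did to the transcripts of these cells. Nothing in the labels says whether the 3 libraries of a group came from separate cultures, so the p-values measure the spread between these libraries only.

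Collagen chains assemble as trimers, which form fibrils, sheets or short networks according to type. Laminins are cross-shaped trimers of an alpha, a beta and a gamma chain that make up the base of basement membranes. Integrins are pairs of an alpha and a beta subunit: the pair decides which matrix protein is bound, and the beta tail connects it through talin, vinculin and actinin to the actin cytoskeleton. In sensory ganglia, collagens and laminins come mostly from glia and fibroblasts, while neurons use laminin-binding integrins for axon growth.

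Levels are given as FPKM (fragments per kilobase of gene, scaled to library size), which can be compared between genes because they are per length. Read counts recovered from these values came to 36914010 to 38836269 reads on genes per library, a range of 1.05-fold, and 3 reads on a gene of 1 kb were worth 0.0772 to 0.0813 FPKM. How reads from mouse transcripts were assigned to rat genes is not given in the sources used here, and a low level of any gene below is a level of reads counted on the rat gene. Of the pan-neuronal markers 11 of 16, and of the sensory neuron markers 7 of the 11 in the table, had a mean under 0.1 FPKM. Over the 12 libraries Tubb3 had a mean of 0.0224 and Prph of 0.0342 FPKM. Means of at least 0.5 FPKM were those of Uchl1 (101) and Map2 (6.7), and of the sensory neuron factors Runx1 (32.2) and Isl1 (13.2). Of 15 fibroblast and mesenchymal markers 11 had a mean of at least 0.5 FPKM, led by S100a4 (930.0) and Vim (884), while the fibroblast proteoglycan Dcn was at 0.194. Most of the listed neuronal markers were thus at or near 0 as counted on the rat genes.

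In control cells the 3 families were expressed very unevenly, with a few chains carrying nearly all of the transcript. The summed level was 1176 ± 10.3 FPKM for integrins, 276 ± 6.38 for collagens and 142 ± 3.47 for laminins (SD, n = 3). Of the 80 genes, 37 had a mean of at least 0.5 FPKM over the 12 libraries and were tested: 17 collagens, 7 laminins and 13 integrins. Of the other 43, 26 had fewer than 10 reads in every library and 11 had at most 3. The tested member with the fewest reads still had 27 in its lowest library.

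**Figure D1:**
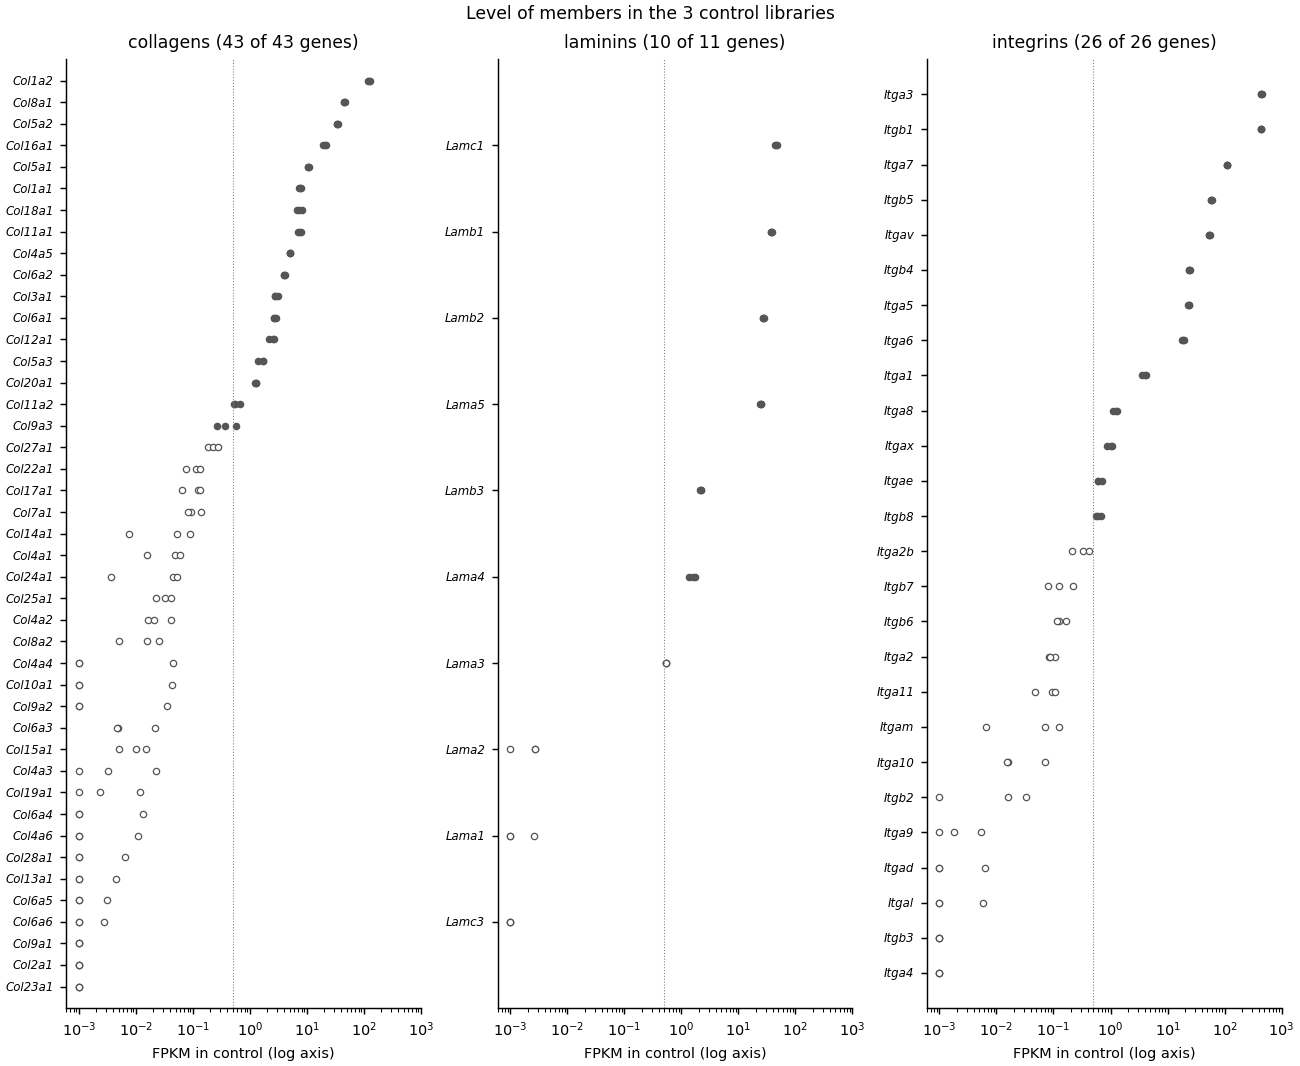
Level of 79 of the 80 genes in the 3 control libraries, by family, on a log axis of FPKM. Each point is a library, filled for tested genes and open for the others; values under 0.001 are drawn at 0.001 and the dotted line marks 0.5 FPKM. Itga3 and Itgb1 lie between 431 and 452 FPKM and Col1a2 at about 123, while no untested gene has a control mean above 0.539.

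Fibrillar collagens, which build the rope-like fibrils of connective tissue, were the most widely expressed of the collagen classes, with 8 of 11 genes tested. Col1a2, the α2 chain of type I collagen, stood at 123 ± 3.76 FPKM in control and 564 of all 21556 genes were above it. Col1a1, the α1 chain of the same trimer, stood at 7.46 ± 0.35 FPKM. The usual type I trimer holds more α1 than α2 chains, but the Col1a2 level exceeded the Col1a1 level by 16.0-fold to 18.7-fold in each of the 12 libraries. Col5a2 (34.1 FPKM in control) and Col5a1 (10.5), chains of the type V collagen that starts fibrils, came next, with Col5a2 over Col5a1 at 2.94 to 3.82 per library. Col11a1 was at 7.27 FPKM, Col3a1 at 2.83, Col5a3 at 1.58 and Col11a2 at 0.582. Col2a1, the cartilage collagen, was listed at 0 in the 3 control libraries.

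The sequence before the annotated start of Col1a2 is shown because this member passed the test of differences between groups in 2 comparisons below. The 250 bases before the start (RefSeq, GRCr8, chr4:33518307-33518556, plus strand, 5′ to 3′) carry ATTGG, which is the CCAAT box read on the other strand, beginning 221 bases before the start, and a TATAAA box beginning 170 bases before it, both in capitals.
Col1a2: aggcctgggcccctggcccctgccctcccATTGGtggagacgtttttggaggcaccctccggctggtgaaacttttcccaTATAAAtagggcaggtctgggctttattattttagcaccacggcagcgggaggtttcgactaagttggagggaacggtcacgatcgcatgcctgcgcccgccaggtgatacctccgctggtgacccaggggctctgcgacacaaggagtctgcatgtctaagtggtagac
Of the 27457 genes with such a window, 34.3% had CCAAT and 13.1% had TATAAA in these 250 bases on either strand. Of the 62 collagen, laminin and integrin genes that had a window, 16 had CCAAT (25.8%) and 6 had TATAAA (9.68%). Another motif, the GC box GGGCGG, was in 32.4% of all windows and in 33 of these 62 (53.2%). These matches are descriptions of letters and not binding sites.

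Among the other collagens, 4 of 9 fibril-associated chains, 2 of 6 beaded filament chains and 1 gene each of the type IV, short-chain and multiplexin classes were tested. Col8a1, a short-chain collagen of sheet-like networks, was the second most abundant at 44.8 ± 1.34 FPKM. Col16a1, which sits on fibril surfaces, was at 20.2 ± 1.17, and Col18a1, the source of endostatin, at 7.35 ± 0.692. Of the 6 type IV chains, which make the basement membrane network, Col4a5 alone was tested, at 4.99 ± 0.103 FPKM. The chains that share its trimers were near 0, with Col4a3 at 0.00859, Col4a4 at 0.0149 and Col4a6 at 0.00363 FPKM. Col4a1 (0.0409) and Col4a2 (0.0261), which form a trimer of their own, were near 0 as well. In type VI collagen, the beaded filament, Col6a1 (2.73) and Col6a2 (4.03) were expressed whereas Col6a3, the third chain of that trimer, was at 0.0102. None of the 4 membrane collagens was tested.

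Col4a1 and Col4a2 start head to head, and the 76 bases between their starts are shown because both genes were near 0 in the same libraries. The stretch (RefSeq, GRCr8, chr16:84885521-84885596, plus strand, 5′ to 3′) has Col4a2 leaving to the left on the minus strand and Col4a1 to the right on the plus strand.
Col4a1 and Col4a2: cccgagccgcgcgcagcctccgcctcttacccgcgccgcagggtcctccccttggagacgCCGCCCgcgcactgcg
The capitals mark the GC box GGGCGG read on the minus strand, beginning 16 bases before the Col4a1 start, and 19.3% of all genes had this motif within 76 bases of their start. Col4a1 ranged from 0.0157 to 0.064 FPKM over the 12 libraries and Col4a2 from 0.00413 to 0.0474, both from at most 16 reads in a library.

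Laminin transcripts were mostly those of a few chains. Lamc1 (46.3 ± 1.7 FPKM in control), Lamb1 (37.6 ± 1.21), Lamb2 (27.2 ± 0.649) and Lama5 (24.7 ± 0.521) made up 95.4% to 96.1% of the laminin FPKM in each library. The gamma chain Lamc1 can pair with either beta chain, and Lamb1 and Lamb2 together stood at 1.35 to 1.48 times Lamc1. Lama5, the alpha chain of most adult basement membranes, was at 0.512 to 0.585 of Lamc1. Lamb3, a chain of the epithelial laminin, was low at 2.18 FPKM, and its alpha chain partner Lama3 was at 0.539 in control but under the minimum over the 12 libraries. Lama1, Lama2 and Lamc3 were at or near 0, with means of at most 0.00178 FPKM in control.

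Integrin transcripts were dominated by the laminin receptor subunits. Itga3 (439 ± 11.4 FPKM in control) and Itgb1 (436.6 ± 2.32) together held 74.2% to 75.7% of the integrin FPKM in each library, and only 144 of all 21556 genes lay above Itga3. The levels of Itga3 (431 to 452) and Itgb1 (435 to 439) overlapped in control, so their order was within the spread. All 3 laminin-binding alpha subunits were expressed: Itga3, Itga7 (112 ± 0.329) and Itga6 (18.7 ± 0.462). Itgb4, which pairs with Itga6, was at 24.0 ± 0.442. The 12 alpha subunits that can pair with Itgb1 summed to 1.36 to 1.53 times Itgb1.

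The subunits that bind the RGD motif of fibronectin and vitronectin came next: Itgb5 at 59.4, Itgav at 54.3 and Itga5 at 23.7 FPKM in control. Collagen-binding integrins were scarce beside the collagens, since of their 4 alpha subunits Itga1 (3.88 FPKM) was the only tested member. Itga8, an RGD receptor, was at 1.22, and the leukocyte subunits Itgax and Itgae were at 0.981 and 0.642. Itga4 and Itgb3 were listed at 0 in the 3 control libraries.

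The region before Itga3 is shown as that of the member with the highest mean in control. Its order with Itgb1 there was within the spread, and Itgb1 was higher over the 12 libraries (438 against 429 FPKM). It is the 250 bases before the annotated start (RefSeq, GRCr8, chr10:80518902-80519151, minus strand, 5′ to 3′), with capitals marking a GC box read on the other strand (CCGCCC, 247 bases before the start), a CCAAT box (239) and a GC box (GGGCGG, 138), none of which overlap.
Itga3: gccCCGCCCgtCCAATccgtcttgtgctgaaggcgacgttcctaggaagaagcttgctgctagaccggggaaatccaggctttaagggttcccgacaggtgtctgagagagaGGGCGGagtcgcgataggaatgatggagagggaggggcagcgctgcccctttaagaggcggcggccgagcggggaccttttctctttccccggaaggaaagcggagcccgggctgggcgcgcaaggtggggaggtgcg
No TATAAA was found in these letters on either strand.

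Differences between the groups were tested with limma on log2(FPKM + 0.1) for the 11451 genes with a mean of at least 0.5 FPKM, with Benjamini-Hochberg adjustment over all of them, and a gene was taken as past the test at an adjusted p under 0.05. Menthol, Wnt3a and their combination were each set against the same 3 control libraries, so the values of those comparisons are given side by side and are not independent of each other. No tested member changed by more than 2-fold with an adjusted p under 0.05 in any comparison. Of all genes 0.00873% did so for menthol, 0.0175% for Wnt3a and 0% for both agents against control, 0% with both against either agent alone and in the interaction, and 0.00873% and 0% for menthol and Wnt3a averaged over the other agent. The 95% intervals of 37, 36 and 37 of the 37 tested members lay inside a 2-fold change for menthol, Wnt3a and both against control. The exception was Col9a3, a fibril-associated chain with an interval for Wnt3a of 0.02 to 1.10 on the log2 scale around 0.56, a change that was 0.36 without control replicate 2. A fold change on this scale understates that of the lowest genes.

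Menthol against control gave slightly lower collagen values and passed the test for no member. Of 37 tested members 33 had a lower mean on the log2 scale with menthol, where 50.9% of all genes tested were lower. The median log2 change was -0.11 for the 17 collagens, -0.09 for the 7 laminins and -0.02 for the 13 integrins, against -0.0016 for all genes. Leaving out 1 library moved these medians between -0.125 and -0.0986 for collagens, between -0.0976 and -0.0477 for laminins (the latter without control replicate 2) and between -0.0556 and -0.0072 for integrins (without control replicate 1 and menthol replicate 1). In limma 0 of 37 members passed (0.105% of all genes did), 7 had an unadjusted p under 0.05, where 9.34% of all genes did, and limma voom on the recovered counts called 2, Col1a1 and Col1a2. In bulk RNA, fewer cells of a type and less RNA per cell cannot be told apart.

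Both chains of type I collagen were lower with menthol, and limma voom called them alone among the members. Other members changed by more than Col1a2 did, as log2 changes of the 17 tested collagens ran from -0.30 to 0.34. Col1a1 was at 7.83, 7.42 and 7.14 FPKM in control and 5.91, 6.31 and 5.93 with menthol. The groups did not overlap, and the log2 change was -0.30 (SE 0.0626), a change of -18.7%, with an adjusted p of 0.126 in limma. Col1a2 was at 126.5, 122.7 and 119 FPKM in control and 108.8, 113.1 and 111 with menthol, again without overlap, with a log2 change of -0.15 (SE 0.0291, adjusted p = 0.106 in limma). The ratio of Col1a2 to Col1a1 was 16.5 ± 0.274 in control and 18.3 ± 0.41 with menthol, with the groups apart.

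Groups that did not overlap were counted for all members. With menthol 10 of 37 members lay wholly below control, where 8.38% of all genes did, and 1 lay wholly above, where 7.48% did. The one above was Itgb1, the common beta subunit, at 446.4, 445.6 and 447.2 FPKM against 435.6, 439.3 and 435 in control, a log2 change of 0.03 (adjusted p = 0.697 in limma). Itga6 was at 18.8, 19.1 and 18.2 in control and 16.0, 16.8 and 17.8 with menthol (log2 change -0.15, adjusted p = 0.329). Col20a1, a fibril-associated collagen, was at 1.26, 1.25 and 1.2 in control and 1.11, 1.03 and 1.04 with menthol (log2 change -0.20, adjusted p = 0.616).

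**Figure D2:**
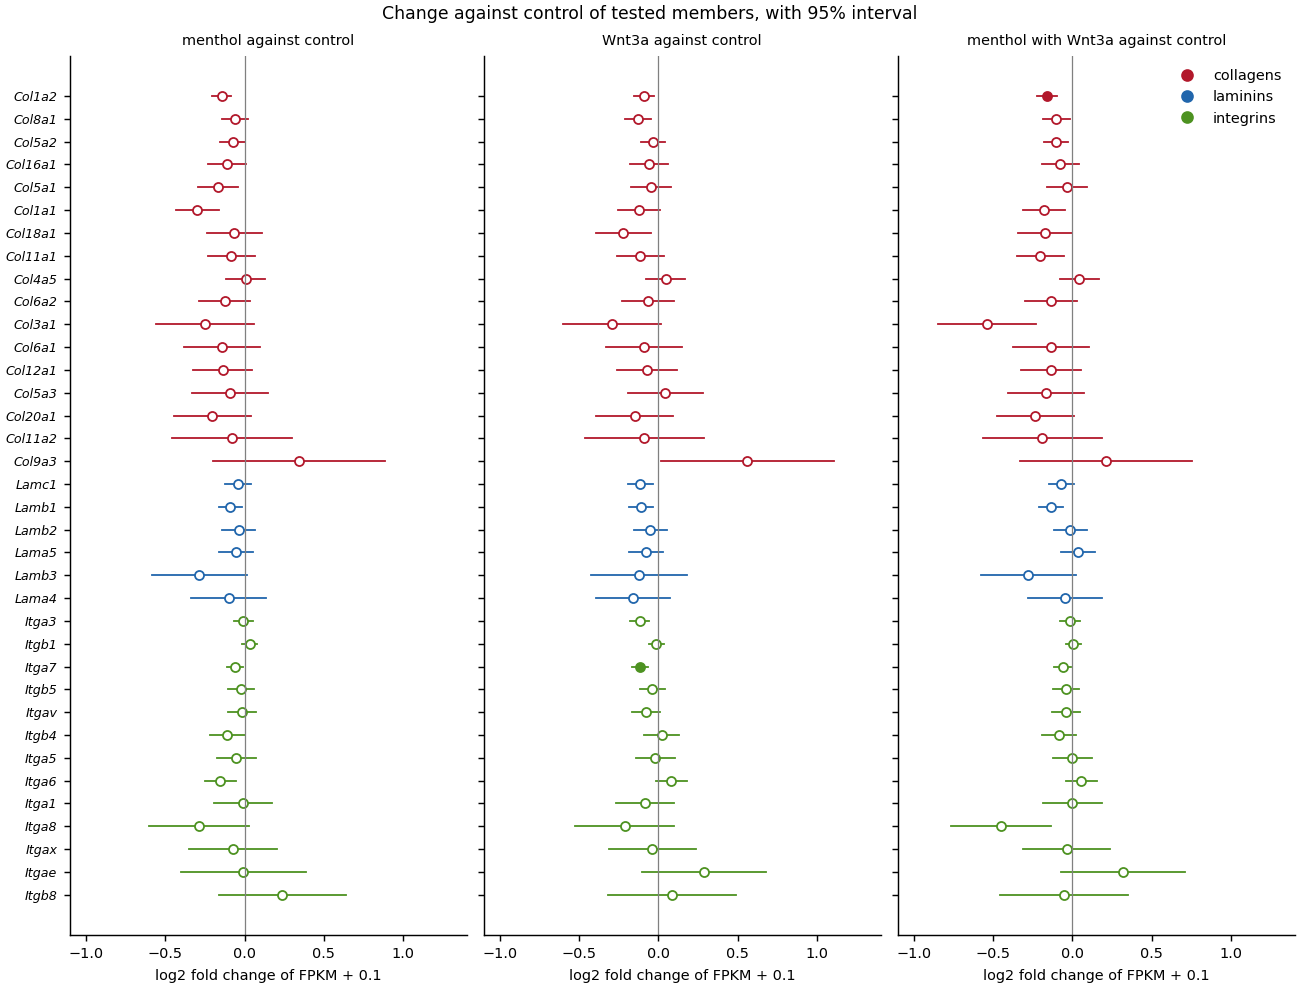
Log2 fold change of FPKM + 0.1 (points) with its 95% interval (lines) for 36 of the 37 tested genes in the comparisons of menthol, Wnt3a and menthol with Wnt3a against the same 3 control libraries. Genes are coloured by family and ordered by control level within it, and filled points passed the test; Col1a2 is filled for menthol with Wnt3a and Itga7 for Wnt3a, and most points lie left of 0.

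Wnt3a against control passed the test for Itga7 alone, a laminin-binding alpha subunit. Itga7 was at 112.7, 112 and 112.3 FPKM in control and 102, 105 and 103.6 with Wnt3a. All Wnt3a libraries lay below all control libraries, and Itga7 fell by 0.12 on the log2 scale (SE 0.0237, a change of -7.87%, adjusted p = 0.0499 in limma). This is 1 of 37 members, where 0.437% of all genes passed, and 8 had an unadjusted p under 0.05 (15.1% of all genes). The call sits at the threshold: over the alternatives its adjusted p ranged from 0.02 to 0.192, and leaving out any one library other than Wnt3a replicate 3 put it above 0.05.

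Itga3, the most abundant laminin-binding alpha subunit, was low in the same libraries. It was at 452, 434 and 431 FPKM in control and 399.5, 394 and 419.8 with Wnt3a, without overlap, with a log2 change of -0.12 (SE 0.0283, adjusted p = 0.0858 in limma). Itga6, the third laminin-binding alpha subunit, lay on the other side, at 19.4, 19.7 and 20.3 with Wnt3a against 18.2 to 19.1 in control (log2 change 0.08, adjusted p = 0.431). Their shared partner Itgb1 was at 428.9, 436.9 and 430.9 with Wnt3a, overlapping control.

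In the families, 30 of 37 members were lower with Wnt3a than control, where 48.4% of all genes were. The median log2 change was -0.09 for collagens, -0.11 for laminins and -0.04 for integrins, against 0.0042 for all genes tested. Leaving out 1 library moved them between -0.106 and -0.0693 for collagens, between -0.134 and -0.0583 for laminins (the latter without Wnt3a replicate 2) and between -0.0685 and -0.0091 for integrins (without Wnt3a replicates 3 and 1). All 7 tested laminins had a lower mean, with Lamc1 and Lamb1 at log2 changes of -0.11 each (adjusted p = 0.177 and 0.151 in limma). Groups were wholly apart for 10 members below control and 1 above, where 10.1% of all genes lay below and 10.1% above.

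Among collagens whose Wnt3a and control libraries did not overlap, Col3a1 and Col18a1 had the lowest log2 changes, and neither passed. Col3a1, the type III fibril chain, was at 3.06, 2.7 and 2.73 FPKM in control and 1.86, 2.47 and 2.61 with Wnt3a (log2 change -0.29, adjusted p = 0.367 in limma). Without Wnt3a replicate 1, the lowest library, its change was -0.15. Col18a1 was at 8.12, 6.78 and 7.15 in control and 6.62, 5.71 and 6.53 with Wnt3a (log2 change -0.22, adjusted p = 0.212). The lowest control value of Col18a1 was 6.78 and the highest Wnt3a value 6.62, so the gap between groups was narrow. Col8a1 was at 43.6, 46.3 and 44.6 in control and 40.9, 38.9 and 43.4 with Wnt3a, a log2 change of -0.13 (adjusted p = 0.142).

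Menthol with Wnt3a against control passed the test for Col1a2. Its level was 109.6, 109.9 and 109.7 FPKM with both agents against 119 to 126.5 in control, the tightest group of the 4. Col1a2 fell by 0.16 on the log2 scale (SE 0.0291, a change of -10.5%, adjusted p = 0.02 in limma), as 1 of 37 members where 0.83% of all genes passed, and 9 had an unadjusted p under 0.05 (13.5% of all genes). The call was lost without control replicate 1 or 2, or without replicate 2 or 3 of menthol with Wnt3a (adjusted p between 0.0756 and 0.104), and in a fit of these 6 libraries alone (0.0561).

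**Figure D3:**
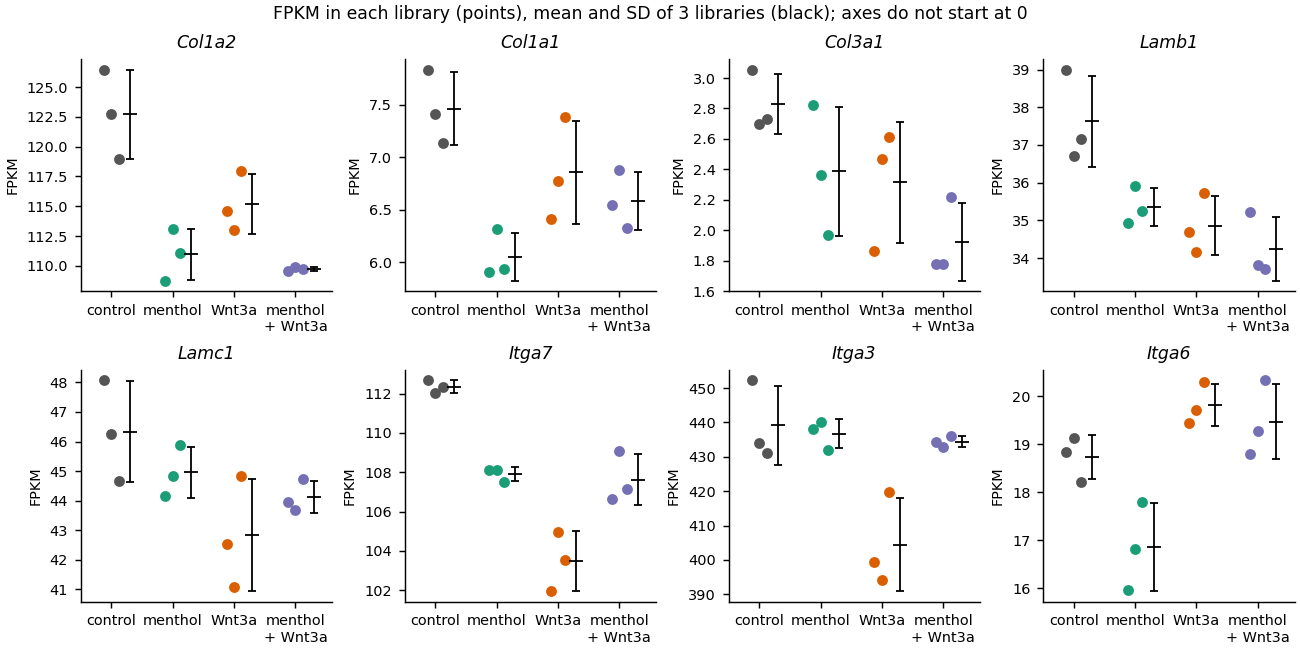
FPKM of 8 members in each of the 12 libraries (points) with the mean and SD of each group (black bar, n = 3); the axes do not start at 0. Col1a2 lies between 119 and 126.5 in control and between 108.8 and 117.9 in the other 9 libraries, and Itga7 and Itga3 are lowest in the Wnt3a libraries.

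With both agents 29 of 37 members had a lower mean than control, where 48.1% of all genes did, and the median log2 change was -0.13 for collagens, -0.07 for laminins and -0.04 for integrins against 0.004 for all genes. Leaving out 1 library moved them between -0.154 and -0.123 for collagens and between -0.13 and -0.0424 for laminins (without control replicates 3 and 1), while the integrin median turned to 0.002 without control replicate 3. Groups were wholly apart for 11 members below control and 1 above, where 9.98% of all genes lay below and 10.5% above. Col3a1 was at 1.78, 1.78 and 2.22 FPKM with both agents, below every control library, a change of -31.2% (log2 change -0.54, SE 0.144, adjusted p = 0.108 in limma). Lamb1 was at 39.0, 36.7 and 37.2 in control and 35.2, 33.8 and 33.7 with both agents, without overlap (log2 change -0.14, adjusted p = 0.0921). Limma voom on the recovered counts called these 3 members, Col1a2, Col3a1 and Lamb1.

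Itga8 and Itgae, integrin subunits of low level, had differences with wide errors. Itga8 was at 1.09, 1.26 and 1.32 FPKM in control and 0.992, 0.738 and 0.888 with both agents, without overlap (log2 change -0.45, 95% interval -0.76 to -0.14, adjusted p = 0.184 in limma). Itgae was at 0.608, 0.613 and 0.706 in control and 0.786, 0.756 and 0.938 with both agents (log2 change 0.32, 95% interval -0.07 to 0.71, adjusted p = 0.485). It rested on 81 to 147 reads per library.

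Menthol with Wnt3a against Wnt3a alone asked what menthol did when Wnt3a was present, and used no control library. In limma 0 of 37 members passed (0.0524% of all genes did), 4 had an unadjusted p under 0.05 (14.5% of all genes), and limma voom called 1, Itga3. Of the members 22 of 37 were lower, where 50.7% of all genes were: 14 of 17 collagens, 3 of 7 laminins and 5 of 13 integrins, with median log2 changes of -0.07, 0.04 and 0.02. The integrin median turned to -0.0228 without Wnt3a replicate 1 and to -0.0181 without replicate 3 of both agents, and the collagen median was -0.0405 without Wnt3a replicate 3. Groups were wholly apart for 2 members below and 2 above, where 8.57% of all genes lay below and 9.11% above.

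Those 4 members were Itga3 and Itga7 above, and Col1a2 and Col5a2 below. Itga3 was at 434, 432.9 and 435.9 FPKM with both agents against 394 to 419.8 with Wnt3a alone (log2 change 0.10, adjusted p = 0.144 in limma). Itga7 was at 106.7, 109.1 and 107.1 against 102 to 105 (log2 change 0.06, adjusted p = 0.299). Col5a2 was at 31.5, 31.0 and 32.6 against 33.5, 33.1 and 33.2, a log2 change of -0.07 (adjusted p = 0.392), and that of Col1a2 was also -0.07 (adjusted p = 0.298).

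Menthol with Wnt3a against menthol alone asked what Wnt3a did when menthol was present. In limma 0 of 37 members passed (0.0961% of all genes did), 2 had an unadjusted p under 0.05 (6.72% of all genes), and limma voom called 1, Itga6. Itga6 was at 18.8, 19.3 and 20.3 FPKM with both agents and 16.0 to 17.8 with menthol, without overlap (log2 change 0.21, SE 0.0456, adjusted p = 0.211 in limma). Itgae (0.556 to 0.729 FPKM with menthol) was also wholly above, with a log2 change of 0.33 (adjusted p = 0.82), as was Col1a1 with 0.12 (adjusted p = 0.796). Of the members 20 of 37 were lower, where 47.4% of all genes were, and groups were wholly apart for 2 below and 3 above, where 5.31% and 5.97% of all genes were. The 2 below were Col8a1 (log2 change -0.04, adjusted p = 0.912) and Itgb1 (-0.03, adjusted p = 0.903).

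**Figure D4:**
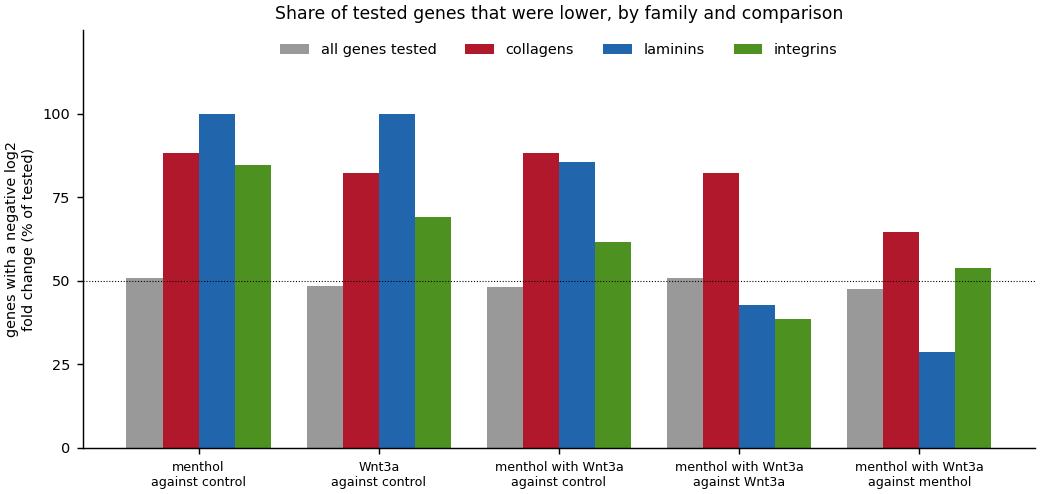
Share of tested genes with a negative log2 fold change, in percent, for all 11451 genes (grey) and for the 17 collagens, 7 laminins and 13 integrins, in 5 comparisons; the dotted line marks 50%. The first 3 comparisons share the control libraries, and in them every family lies above the grey bar, while without control libraries the laminins lie below it.

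The share of lower members was at least 29 of 37 in the 3 comparisons that used the control libraries, and 22 and 20 of 37 in the others. Leaving out control replicate 1, 2 or 3 in turn gave 32, 32 and 30 lower members of 37 for menthol, 29, 31 and 28 for Wnt3a, and 30, 27 and 27 for both agents. In the sums over members, collagens were at 269 to 282 FPKM in control and 250.3 to 266.8 in the other 9 libraries, without overlap. Col1a2 alone held 43.1% to 44.8% of that sum in each library. The median log2(FPKM + 0.1) over tested collagens was 2.33 to 2.38 in control and 2.27 to 2.44 elsewhere, with overlap. The laminin sums were at 138.9 to 145.8 FPKM in control and 129.8 to 139 elsewhere, so that these overlapped. The summed mesenchymal markers were at 2064 to 2078 FPKM in control, 1989 to 2059 with menthol, 2062 to 2209 with Wnt3a and 1940 to 2036 with both. These sums, mostly S100a4 and Vim, were thus below control in both menthol groups and not with Wnt3a alone. Of the 11 tested mesenchymal markers 8 had a lower mean with menthol, 5 with Wnt3a and 7 with both. Of all genes 50.9%, 48.4% and 48.1% did. The summed epithelial markers, of which 2 of the 6 in the table had a mean of at least 0.5 FPKM, were at 27.3 to 28.3 in control, 22.8 to 27.2 with menthol, 29.4 to 30.0 with Wnt3a and 26.3 to 28.4 with both. Isl1 was at 10.8 to 11.4 FPKM in control, 9.28 to 10.8 with menthol, 14.1 to 17.6 with Wnt3a and 15.0 to 15.8 with both. It rose by 0.50 on the log2 scale with Wnt3a (adjusted p = 0.0121 in limma), and passed in 16 of 21 fits. Without an FPKM minimum, control replicate 1 or 3, or Wnt3a replicate 1 or 2, this call was lost (adjusted p 0.0563 to 0.0669 in limma). Runx1, the other tested sensory neuron marker, fell by 0.15 with Wnt3a without passing, its libraries wholly below control. The part of these markers in the collagen, laminin and integrin values was not tested.

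The interaction of the agents, the change with menthol in the presence of Wnt3a less that in its absence, passed the test for 0 of 37 members and 0% of all genes in limma, and for none by limma voom. An unadjusted p under 0.05 was found for 4 members, where 6.99% of all genes had one. The interaction was negative for 7 of 37 members, where 49.5% of all genes were, with a median of 0.08, and it uses the control libraries too. For Itga7 it was 0.11 (95% interval 0.04 to 0.19, adjusted p = 0.715) and for Col1a1 0.24 (0.05 to 0.43, adjusted p = 0.715).

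Averaged over both Wnt3a states, menthol passed the test for Col1a2 alone among the members, as 1 of 37 where 1.15% of all genes did, and 11 had an unadjusted p under 0.05 (15.5% of all genes). Col1a2 fell by 0.11 on the log2 scale (SE 0.0205, a change of -7.17%, adjusted p = 0.0251 in limma), and this call was lost without control replicate 1 or 2, Wnt3a replicate 1, menthol replicate 3 or replicate 2 or 3 of menthol with Wnt3a (adjusted p between 0.0527 and 0.0673). Of 17 collagens 16 were lower in this average, against 3 of 7 laminins and 7 of 13 integrins, where 50.6% of all genes were. Col1a1 came next with -0.18 (adjusted p = 0.0734).

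Averaged over both menthol states, Wnt3a passed the test for 0 of 37 members in limma, where 0.803% of all genes did, with 11 members at an unadjusted p under 0.05 (14.2% of all genes) and 1, Itga6, called by limma voom. A lower mean was found for 28 of 37, where 48.1% of all genes had one. Itga6 was higher by 0.14 on the log2 scale (SE 0.0322, adjusted p = 0.0577). A test of any difference over the 4 groups passed for Col1a2 (adjusted p = 0.0396 in limma), as 1 of 37 members where 0.978% of all genes passed, and the count was 0 when any one library other than Wnt3a replicate 3 was left out. An unadjusted p under 0.05 in that test was found for 8 members, where 17.4% of all genes had one.

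Members under the minimum were also fitted without it, over all 21556 genes, and none passed in any comparison. Itgb6, the epithelial partner of Itgav, was chosen after its values were seen, as the one with the smallest p for Wnt3a. It was at 0.124, 0.164 and 0.114 FPKM in control and 0.277, 0.414 and 0.274 with Wnt3a, from 22 to 31 and 52 to 76 reads. The groups did not overlap, and the log2 change was 0.84 (SE 0.153, adjusted p = 0.0905 in limma). Both agents together gave 0.19, 0.217 and 0.227 FPKM, between the control and the Wnt3a libraries.

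The genes that make, cut and read the matrix were followed in 5 lists, chosen with earlier results of these data known. Of their 90 tested genes 11 passed the test in at least 1 of the 8 comparisons or over the 4 groups, as did 2 of the 37 collagens, laminins and integrins and 2.21% of all genes tested. Every one of the 11 fell where it passed.

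Of 16 tested other matrix proteins, 3 passed somewhere. Thbs1, which encodes the adhesive glycoprotein thrombospondin, was at 819.0, 771 and 771 FPKM in control, 711, 700.2 and 689 with menthol, 616, 571 and 594 with Wnt3a and 588, 613 and 569 with both. The Wnt3a libraries lay far below control, and Thbs1 fell by 0.41 with Wnt3a (SE 0.0359, adjusted p = 0.000293 in limma). Tnc, the anti-adhesive tenascin, was at 97.4 to 105 FPKM in control, 76.5 to 87.4 with menthol, 79.0 to 85.7 with Wnt3a and 67.1 to 74.6 with both. It fell in each against control, by 0.32, 0.29 and 0.52 on the log2 scale (adjusted p = 0.0468, 0.0453 and 0.000386 in limma). Sparc, a collagen-binding protein, fell by 0.14 with menthol averaged over both Wnt3a states (adjusted p = 0.0144).

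Of 21 tested genes for collagen synthesis and crosslinking, Pcolce alone passed. It encodes the enhancer that helps cut the ends off fibrillar procollagen, and it stood at 245.2, 247.9 and 242.6 FPKM in control and 220.1, 221.9 and 222.1 with menthol. It fell by 0.15 with menthol (SE 0.0228, adjusted p = 0.031 in limma) and by 0.12 with both agents (adjusted p = 0.0237). Of 17 tested proteases and inhibitors Timp2, a metalloproteinase inhibitor, passed, falling by 0.13 with both agents (adjusted p = 0.0403). Of 11 non-integrin matrix receptors the syndecan Sdc2 passed, falling by 0.15 with menthol averaged over both Wnt3a states (adjusted p = 0.0302).

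Of 25 tested cytoplasmic adaptors that tie integrins to actin, 5 passed somewhere. Actn1, the actin crosslinker α-actinin, was at 64.3 to 66.2 FPKM in control, 56.5 to 59.1 with menthol, 57.4 to 59.1 with Wnt3a and 54.5 to 56.9 with both, and it fell in each (log2 change -0.18, -0.16 and -0.24, adjusted p = 0.034, 0.0429 and 0.00155 in limma). Tgfb1i1, the focal adhesion protein Hic-5, was at 34.1 to 35.9 in control and 24.9 to 28.9 with menthol, and at 32.2 to 36.2 with Wnt3a and 25.3 to 26.0 with both. It fell with menthol without Wnt3a (by 0.38, adjusted p = 0.0193) and with it (by 0.43, adjusted p = 0.00963). Flna and Vcl, which encode filamin and vinculin, fell by 0.24 and 0.23 with both agents (adjusted p = 0.00684 and 0.00481), and zyxin (Zyx) fell by 0.13 with Wnt3a averaged over both menthol states (adjusted p = 0.0426). Over the 21 fits run for a comparison of 2 groups, Thbs1 with Wnt3a and Tnc, Actn1, Flna and Vcl with both agents passed in every one. The other calls were lost in some: Tnc passed in 8 with menthol and 10 with Wnt3a, Actn1 in 10 and 9, Pcolce in 10 with menthol and 15 with both agents, Timp2 in 11, and Tgfb1i1 in 15 without Wnt3a and 17 with it. Over the 20 fits run for an average, Sparc passed in 20, Sdc2 in 10 and Zyx in 7.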

How the data were processed

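RNA of 12 ND7/23 libraries (4 groups of 3) was sequenced as 150 bp paired-end reads. The authors used fastp for filtering, HISAT for alignment and HTSeq-count for counts per gene, and deposited FPKM values, 1 column per library. The submitters' processing notes name the build mRatBN7.2, and the annotation release and the versions of these tools are not given in the sources used here. The deposited table also lists gene identifiers and descriptions.

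Read counts were recovered from the steps of the FPKM values (100% of 21556 genes came out whole, largest relative distance 3.16e-13), giving 36914010 to 38836269 reads per library. The main test was limma 3.58.1 in R 4.3.3 (trended prior, all 12 libraries in 1 fit) on log2(FPKM + 0.1) for genes with a mean of at least 0.5 FPKM, with Benjamini-Hochberg adjustment. Within groups, library pairs were further apart than sampling noise alone gives (chi-square per degree of freedom 3.53 to 7.61 over 12 pairs). The fit and the recovery of counts were tested on simulated data. Alternatives were other pseudocounts and minimums, centring of libraries, a replicate block, limma voom on the recovered counts, fits of 2 groups and leaving out each library; those for the test over the 4 groups and for matrix genes outside the families were added after seeing the data.

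The genes named are the 4 most abundant of each family, those past the test, and in each comparison up to 2 members with the largest rise and 2 with the largest fall among those whose groups did not overlap. The genes and lists were chosen with earlier results of these data known. The limit of 3 reads was used only to describe low levels and does not cover counting error. Genes were taken into the main test by their mean FPKM. Sequences are from RefSeq (GRCr8), another build than the authors', and were used for no value. The values of 1 tested gene are not reported here, though it is counted in the totals.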

Additional observations from a re-analysis of the deposited data

How the results depend on the processing

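The 51 changes of single genes that were recomputed kept their direction under the alternatives run, and that of Itgb6 was not recomputed. The numbers of members past the test moved as follows. For Wnt3a against control the count of 1 became 0 with a pseudocount of 0.01, without an FPKM minimum, with libraries centred on their medians, with a replicate block and in the fit of 2 groups, and 2 with limma voom. With limma voom it became 2 for menthol, 3 for both agents against control, 1 for both against Wnt3a, 1 for both against menthol, 2 for menthol over both Wnt3a states, 1 for Wnt3a over both menthol states and 5 over the 4 groups. The count for both agents against control was 0 in the fit of 2 groups, and that over the 4 groups was 0 without a minimum and 2 with centring. Leaving out 1 library gave 0 to 3 for Wnt3a against control (3 without Wnt3a replicate 3: Col8a1, Itga3 and Itga7), 0 to 1 for both agents against control, 0 to 1 for menthol and 0 to 1 for Wnt3a averaged over the other agent, and 0 to 2 over the 4 groups. The median change of collagens without a minimum was -0.0043 for Wnt3a and -0.0596 for both agents against control. As the median log2(FPKM + 0.1) over all members in place of the sum, the control level was -2.74 for collagens, 1.16 for laminins and -0.872 for integrins.

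Correlations of deviations between same-numbered libraries were -0.0551 to 0.153 (median 0.0129, over 0.1 in 1 of 18 pairs). For libraries of different number they were -0.157 to 0.115 (median -0.0065, over 0.1 in 1 of 36). Between the treated groups, same-numbered pairs were at 0.0717 to 0.153 for number 1, -0.0012 to 0.0137 for number 2 and 0.0362 to 0.0665 for number 3. The numbers were not taken to pair libraries in the main fit, and whether a number marked a shared batch was not tested. With the replicate block, 1 member, Itga6, passed for Wnt3a over both menthol states, and over the 4 groups Itga6 passed in place of Col1a2. Over all genes, limma voom called 60, 303, 143, 33 and 261 in the comparisons of menthol, Wnt3a, both against Wnt3a, both against menthol and both against control, where the main test called 12, 50, 6, 11 and 95. No minimum gave 2, 9, 0, 2 and 60, the fits of 2 groups 3, 17, 0, 4 and 49, and the block 21, 50, 24, 10 and 115. Leaving out 1 library gave 0 to 15, 6 to 291, 0 to 38, 3 to 14 and 41 to 100, with 291 without Wnt3a replicate 3. Averaged over the other agent, limma voom called 294 for menthol and 279 for Wnt3a against 132 and 92, and leaving out 1 library gave 52 to 143 and 55 to 151. With centring, 23 of 99 genes past the test were higher with both agents against control (36 of 95 without it), 41 of 135 for menthol (56 of 132) and 43 of 98 for Wnt3a (54 of 92) averaged over the other agent. The causes of these differences were not tested.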
